A study of Mus musculus with 9 samples.

Results

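The genes described here encode the adult and fetal isoforms of 3 sarcomere proteins: the myosin heavy chains Myh6 and Myh7, the striated-muscle actins Actc1 and Acta1, and the inhibitory troponins Tnni3 and Tnni1. They were taken by symbol from 53465 gene rows of the count tables, and all 6 were found. RNA was sequenced from the infarct border zone of the heart of NOD-SCID mice, an immunodeficient strain, in 3 groups of 3 libraries. The sham group had surgery without occlusion, the ligation group had a coronary artery tied off, and the cell group had the same ligation and an implantation of cells that the labels call FOXO3-GE-MPCs. Age, sex, time after surgery, the species of the cells and any mock injection of the other hearts are not given in the sources used here, and no group received other cells. The same strain and sampled region are labelled in all 3 groups. The source field names FOXO4 for cell library 2 and FOXO5 for cell library 3, so it differs among all 3 cell libraries, whereas their titles and treatment fields name FOXO3, which was followed. Nothing in the labels says that the libraries of a group came from separate animals, and the file headers of sham libraries 1 and 2, and of ligation libraries 2 and 3, share a name stem, so p-values measure the spread between these libraries.

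The sarcomere is the contractile unit of striated muscle, in which myosin thick filaments pull on actin thin filaments. The troponin complex on the thin filament makes this pull depend on calcium, and troponin I is its inhibitory subunit. Each of these proteins exists as isoforms from separate genes. In the mouse ventricle Myh7, the slow beta myosin heavy chain, dominates before birth and Myh6, the fast alpha chain, after it. Acta1, the skeletal alpha-actin, and Tnni1, the slow skeletal troponin I, are likewise relatively abundant in the fetal heart, whereas Actc1 and Tnni3 are the cardiac forms of the adult. A partial return of Myh7 and Acta1 is a widely used marker of a stressed adult ventricle.

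Libraries held 4549268 to 7515052 gene counts, and 13825 genes passed the filter on low counts. The members were abundant apart from Tnni1, which failed that filter, so 5 of the 6 were tested. Levels are given as CPM, counts scaled to a common library size with TMM factors. A gene is called at an adjusted p under 0.05 in the quasi-likelihood test of edgeR, with p-values adjusted over all tested genes by Benjamini-Hochberg. Genes of the mitochondrial genome made up 19.6% ± 0.417 (SD, n = 3) of the sham counts, 13.2% ± 0.695 of the ligation counts and 14.3% ± 0.0366 of those with cells, and without these genes the members' changes differed little (log2 change after ligation 1.20 for Myh7 and -0.96 for Tnni3, and 0.55 for Acta1 with cells over ligation). With library totals in place of TMM factors the median log2 change of all genes moved to 0.20 for ligation against sham and to 0.15 for cells against sham, so small changes in those comparisons depend on the scaling. The 12 genes of a general cardiomyocyte list were detected in every group and summed to 25832 to 32414 CPM over the 9 libraries.

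Per kilobase of annotated exon, which allows levels of different genes to be compared, Actc1 was the most abundant of the 6 in sham hearts at 6194 ± 214 CPM per kb (SD, n = 3). Tnni3 followed at 2952 ± 56.5, Myh6 at 1522 ± 83.3, Acta1 at 617 ± 22.8, Myh7 at 51.8 ± 1.35 and Tnni1 at 0.404 ± 0.124. No neighbours in that order overlapped. After ligation the order was the same, but Tnni3 at 1533 ± 124 CPM per kb lay nearer to Myh6 at 1196 ± 14.9. In the cell group Acta1, at 1197 ± 13.5 CPM per kb, lay above Myh6, at 1128 ± 21.0, in all 3 libraries, and Tnni3 at 1447 ± 83.0 stayed above both. These levels divide by all annotated exon bases of a gene, so isoforms that use few of them are understated. The order of close neighbours, such as Acta1 and Myh6 in the cell group, depends on these lengths. It also depends on how reads that Myh6 shares with Myh7 were counted.

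**Figure D1:**
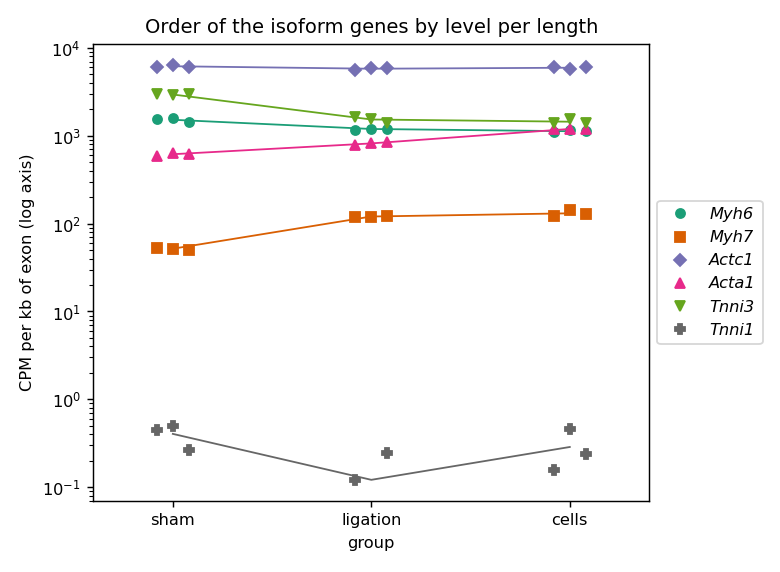
Mean level of each gene in CPM per kb of exon (log axis; lines join group means) and the single libraries (points) in the sham, ligation and cell groups. Actc1 lies between 5596 and 6439 in all libraries, Acta1 climbs from below to above Myh6, and Tnni1 lies far under the others; the ligation library with 0 Tnni1 counts cannot be drawn on this axis.

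Myh6 and Myh7 lie next to each other on chromosome 14 of GRCm38, on the reverse strand. Myh6 (ENSMUSG00000040752) spans chr14:54941921-54966927 and Myh7 (ENSMUSG00000053093) spans chr14:54970684-54994626. Acta1 (ENSMUSG00000031972) lies at chr8:123891769-123894751, Actc1 (ENSMUSG00000068614) at chr2:114047282-114053548 and Tnni3 (ENSMUSG00000035458) at chr7:4518305-4524229, each on the reverse strand. Tnni1 (ENSMUSG00000026418) lies on the forward strand at chr1:135779434-135810989. Of the 31-base words in Myh6 transcripts 29.1% also occur in Myh7, and of 100-base words 10%. For Myh7 the shares found in Myh6 were 22.5% and 7.71%. Reads from these stretches cannot be given to 1 of the 2 genes with certainty, so their separate counts carry that uncertainty. Acta1 and Actc1 shared 0 words of either length with each other, and so did Tnni1 and Tnni3.

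The promoters of the actin and myosin pairs are shown because the members of each pair moved apart, and because the levels of factors known to bind such elements were measured. The sequences are the 250 bases before the RefSeq start on GRCm38.p6, read 5′ to 3′ on the gene's reverse strand, and capitals mark the motif matches. The windows are chr8:123894776-123895025 for Acta1, chr2:114052876-114053125 for Actc1, chr14:54966608-54966857 for Myh6 and chr14:54994627-54994876 for Myh7, the first of 2 annotated starts.
Acta1: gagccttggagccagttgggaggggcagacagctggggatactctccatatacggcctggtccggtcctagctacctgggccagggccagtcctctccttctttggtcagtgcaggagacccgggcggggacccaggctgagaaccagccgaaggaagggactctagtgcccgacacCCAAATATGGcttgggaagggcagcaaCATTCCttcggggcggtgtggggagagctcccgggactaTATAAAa
Actc1: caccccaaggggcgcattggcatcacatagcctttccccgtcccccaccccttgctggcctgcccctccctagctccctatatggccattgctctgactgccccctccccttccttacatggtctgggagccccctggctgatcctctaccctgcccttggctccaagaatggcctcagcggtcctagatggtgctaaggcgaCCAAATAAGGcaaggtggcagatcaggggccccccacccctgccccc
Myh6: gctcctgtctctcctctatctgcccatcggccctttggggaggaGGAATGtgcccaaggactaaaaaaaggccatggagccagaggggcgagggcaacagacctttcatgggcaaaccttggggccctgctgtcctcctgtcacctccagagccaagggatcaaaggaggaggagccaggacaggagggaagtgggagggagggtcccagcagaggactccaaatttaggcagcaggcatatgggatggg
Myh7: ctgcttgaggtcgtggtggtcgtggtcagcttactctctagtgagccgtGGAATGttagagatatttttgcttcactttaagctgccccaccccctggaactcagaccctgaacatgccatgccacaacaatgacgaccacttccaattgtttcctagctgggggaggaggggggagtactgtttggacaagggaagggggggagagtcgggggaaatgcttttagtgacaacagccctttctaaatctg
The search covered the CArG box, the element of serum response factor, and the box bound by MEF2 factors. It also covered CATTCC, the core of the element that TEAD factors bind, on both strands. The letters AGATAA, to which GATA factors bind, were searched on both strands as well. TATAAA was searched on the printed strand. No match overlapped another. Both actin windows held a CArG box, at 73 to 64 bases before the start in Acta1 and at 47 to 38 in Actc1, against 1.47% of 32851 promoter windows of the same length. Acta1 also held CATTCC at 46 to 41 bases before the start, found in 12.6% of windows, and TATAAA at 7 to 2, found in 7.59%. Myh6 held CATTCC on the other strand at 206 to 201 bases before the start, and the first Myh7 window held it at 201 to 196. None of the 5 motifs was found in the second window of Myh7 or in the windows of Tnni1 and Tnni3, which says only that these letters are not in those bases.

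Ligation was first compared with sham, the comparison of infarcted with non-infarcted hearts. All 5 tested members passed the test, with 2 higher and 3 lower. Over all tested genes 38.2% were called in this comparison, 20.1% higher and 18.0% lower. Myh7 rose 2.33-fold and Acta1 1.33-fold, Myh6 and Tnni3 fell, and Actc1 moved little.

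Myh7 measured 458, 447 and 435 CPM in the sham libraries, 1036, 1021 and 1059.9 in the ligation libraries, and 1058, 1219 and 1111 in the cell libraries. Every library of a ligated heart, with or without cells, lay above every sham library, whereas ligation and cell libraries overlapped. The mean was 447 ± 11.7 CPM (SD, n = 3) in sham and 1039 ± 19.7 after ligation, a log2 change of 1.22 (SE 0.0476, edgeR adjusted p = 4.63e-14).

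Myh6, the dominant heavy chain of the adult mouse ventricle, measured 10376, 10720.5 and 9625 CPM in sham, 7927, 8110.3 and 8088 after ligation, and 7480.4, 7747 and 7533 with cells. The sham libraries lay above all others, and the cell libraries lay below the ligation libraries without overlap. After ligation its mean fell from 10240.3 ± 560 to 8042 ± 100.1 CPM, a log2 change of -0.35 (SE 0.0317, edgeR adjusted p = 2.17e-08). When library totals replaced the TMM factors its log2 change was -0.16 (edgeR adjusted p = 0.000311). In CPM, Myh6 fell by 2198 and Myh7 rose by 592, so the summed heavy chain level went from 10687 ± 568 to 9081 ± 103 CPM (SD, n = 3). With library totals the log2 change of Myh7 was 1.41, so the size of the fall in the sum also depends on the scaling.

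Acta1 measured 907, 972 and 964 CPM in sham, 1209.6, 1257 and 1308 after ligation, and 1846, 1854 and 1815 with cells. The 3 groups formed separate steps with no overlap. The first step, from 948 ± 35.0 to 1258 ± 48.9 CPM, was a log2 change of 0.41 (SE 0.0391, edgeR adjusted p = 4.3e-08). Actc1, the main sarcomeric actin of the heart, measured 9861, 10419 and 9786 CPM in sham, 9055, 9509.8 and 9599 after ligation, and 9746, 9404 and 9753 with cells. The ligation libraries lay below the sham libraries, and the cell libraries overlapped the ligation group. Its log2 change after ligation was -0.09 (SE 0.0291, edgeR adjusted p = 0.0142), and it was 0.09 (adjusted p = 0.020) when library totals replaced the TMM factors. The call was also lost without sham library 2 (adjusted p = 0.105), so no direction is drawn for Actc1.

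Tnni3, the only troponin I form present in quantity, measured 6168, 5957 and 6147 CPM in sham, 3409.8, 3179.9 and 2901 after ligation, and 2887, 3183 and 2886 with cells. The sham libraries were far above both ligated groups, and those groups overlapped. After ligation its mean fell from 6091 ± 116 to 3164 ± 255 CPM, 1.93-fold lower, with a log2 change of -0.95 (SE 0.0464, edgeR adjusted p = 1.69e-12). Tnni1 had 9, 11 and 6 counts in sham, 0, 3 and 7 after ligation, and 4, 12 and 6 with cells. The sums of 26, 10 and 22 counts carry exact Poisson 95% intervals of 17.0 to 38.1, 4.80 to 18.4 and 13.8 to 33.3, which cover counting error only. Ligation libraries 1 and 2 were at or under the floor of 3 counts, which corresponds to 0.375 to 0.639 CPM over the 9 libraries. With no filter on low counts its log2 change was -1.50 after ligation (edgeR adjusted p = 0.0855) and 1.03 for cells against ligation (adjusted p = 0.538). When each library was left out in turn Tnni1 entered the test in 7 of 9 fits. Its change after ligation was called in 1 of them, without ligation library 3, at -2.43 (edgeR adjusted p = 0.0337). In the other 6 it was not called, at -1.73 to -1.10 (adjusted p = 0.0614 to 0.185). A rise of this fetal form beside the loss of Tnni3 was thus not detected.

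**Figure D2:**
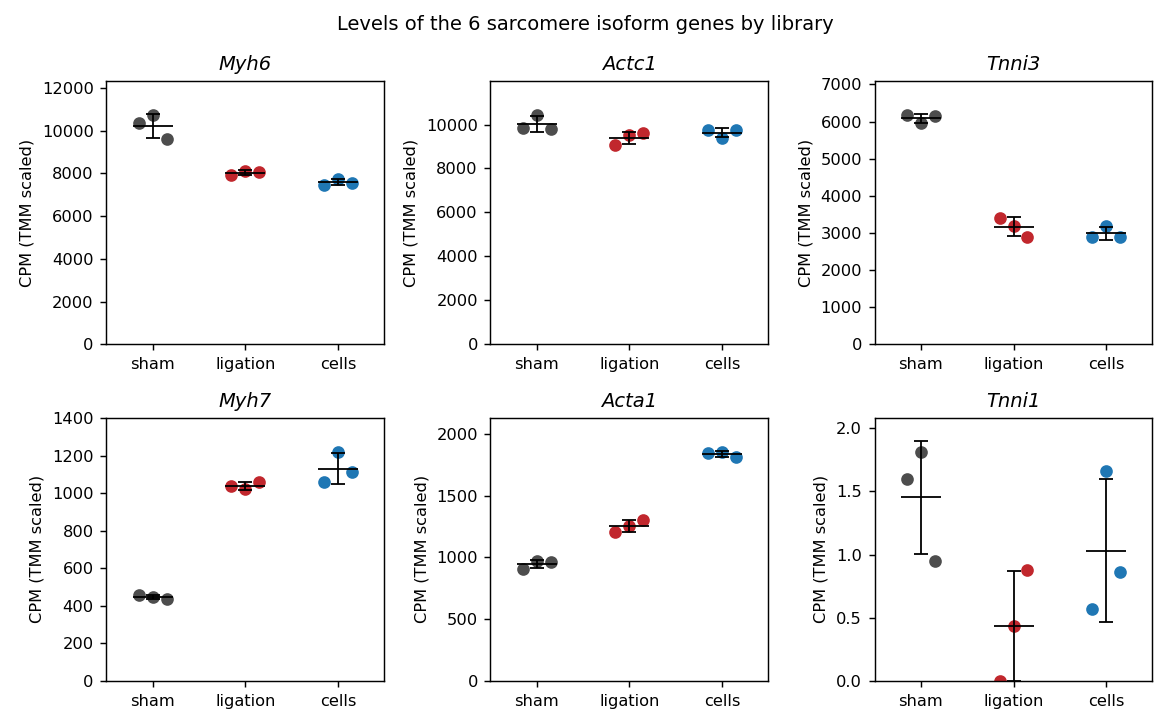
CPM of the 6 genes (linear axes from 0) in the sham, ligation and cell groups; points are libraries, and the black lines give the mean and SD of 3 libraries. Myh7 separates sham from both ligated groups, Acta1 forms 3 steps up to 1838, and Tnni3 falls to 3164 after ligation and stays there with cells.

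These are bulk samples, in which fewer cells of a type and less RNA per cell cannot be told apart. The general cardiomyocyte list summed to 32120 to 32414 CPM in sham, 25832 to 27273 after ligation and 27649 to 28102 with cells. Of its 12 genes 1 rose (Ryr2, the calcium release channel), 8 fell and 3 did not pass the test after ligation, with a median log2 change of -0.23 against 0.01 for all genes. With library totals 4 rose and 5 fell, and the median was -0.04. Mb, the oxygen-binding myoglobin, had a log2 change of -0.24 (edgeR adjusted p = 3.28e-07), and Atp2a2, the calcium pump of the sarcoplasmic reticulum, -0.38 (adjusted p = 1.67e-09). Relative to the summed counts of this list within each library, the log2 change after ligation was 1.49 for Myh7, 0.69 for Acta1, -0.67 for Tnni3, 0.18 for Actc1 and -0.07 for Myh6. On that scale Myh6 moved least. The list's part in the members' changes was not tested beyond these values.

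Markers of other cells moved in the same comparison. All 6 macrophage genes rose, their sum going from 375 to 412 CPM in sham to 789 to 816 after ligation. Of 8 fibroblast genes 6 rose and 1 (Pdgfra) fell, with sums of 2300 to 2355 and 4280 to 4376 CPM. All 5 endothelial genes fell: Pecam1, Cdh5, Kdr, Egfl7 and Tek. Their sum was 1675 to 1769 CPM in sham and 1105 to 1162 after ligation. Of 7 tested genes of the smooth muscle list 3 fell (Acta2, Myh11 and Smtn) and 1 rose (Des). Des is not specific to smooth muscle, so its change is not read as one of other cells. Acta2, the smooth muscle actin that also marks myofibroblasts, did not follow Acta1: its log2 change was -0.43 (SE 0.0470, edgeR adjusted p = 2.76e-07). How far these shifts contribute to the members' CPM was not tested. Genes named in parentheses beside a count here and in what follows lie outside the rule for named genes unless they appear elsewhere, and were named after their values were seen.

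The cell group was then compared with ligation, which sets infarcted hearts with implanted cells against those without. Of the 5 tested members 1 was called, Acta1, which was higher. In this comparison 9.87% of tested genes were called, 4.19% higher and 5.69% lower. Acta1 rose from 1258 ± 48.9 to 1838 ± 20.7 CPM (SD, n = 3), 1.46-fold, with a log2 change of 0.55 (SE 0.0390, 95% interval 0.466 to 0.628, edgeR adjusted p = 4.1e-09). The move was away from the sham level. In CPM it was 580.2, beside 311 for the step after ligation, but the order of the 2 steps depends on the scale and was not tested. With library totals the log2 changes were 0.60 after ligation and 0.52 with cells over ligation.

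The other 4 tested genes did not pass. The log2 difference of Myh7 between cells and ligation was 0.12 (95% interval 0.0238 to 0.218, edgeR adjusted p = 0.113), that of Myh6 -0.08 (-0.150 to -0.0179, adjusted p = 0.105), that of Tnni3 -0.08 (-0.180 to 0.0128, adjusted p = 0.300) and that of Actc1 0.04 (-0.0234 to 0.0981, adjusted p = 0.495). Myh6 and Myh7 lay near the threshold. Myh6 was called at -0.11 with library totals (adjusted p = 0.0268). It was called at -0.08 with no filter on low counts (adjusted p = 0.0103) and without sham library 3 (adjusted p = 0.0402), but was at -0.02 with offsets for GC content and length (0.637). Myh7 was called at 0.17 with those offsets (adjusted p = 0.0162) and without cell library 1 (0.0459), and was at 0.06 without cell library 2 (0.488). Tnni3 was called at -0.14 without ligation library 3 (adjusted p = 0.0351), and was at -0.03 without ligation library 1 (0.751). Actc1 was at 0.01 to 0.05 when each library was left out.

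Of the 12 general cardiomyocyte genes 5 rose with cells over ligation (Atp2a2, Csrp3, Pln, Ldb3 and Casq2), 1 fell (Tcap) and 6 did not pass, with a median log2 change of 0.08. With library totals 3 rose, 2 fell and 7 did not pass. Relative to their sum Acta1 was higher by 0.48 on the log2 scale, Myh7 by 0.05, and Myh6 and Tnni3 were each at -0.15. All 6 macrophage genes fell, to sums of 326 to 339 CPM, and Lyz2, a lysozyme of phagocytes, had a log2 change of -1.24 (edgeR adjusted p = 4.17e-13). Of the fibroblast genes 2 fell (Col3a1 and Postn) and of the endothelial genes 2 rose (Kdr and Tek). Of the smooth muscle list 1 rose (Acta2) and 1 fell (Des, which is not specific to smooth muscle). The part of these shifts in the members' values was not tested.

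Against sham, the cell group had 4 called members, 2 higher and 2 lower. Over all tested genes 40.9% were called, 21.0% higher and 20.0% lower. Myh7 was 2.53-fold higher (log2 change 1.34, edgeR adjusted p = 9.17e-15) and Acta1 1.94-fold higher (0.96, adjusted p = 8.45e-14). Tnni3 was 2.04-fold lower (-1.03, adjusted p = 4.16e-13), and Myh6 had a log2 change of -0.43 (adjusted p = 7.39e-10). With library totals Myh6 was at -0.27 (edgeR adjusted p = 5.2e-07). Actc1, at -0.06, did not pass the test (adjusted p = 0.127). It turned to 0.10 (adjusted p = 0.012) with library totals, and was called at -0.07 without mitochondrial genes (adjusted p = 0.0294) and without ligation library 3 (adjusted p = 0.0314). This comparison shares its libraries with the other 2 and is no separate evidence.

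**Figure D3:**
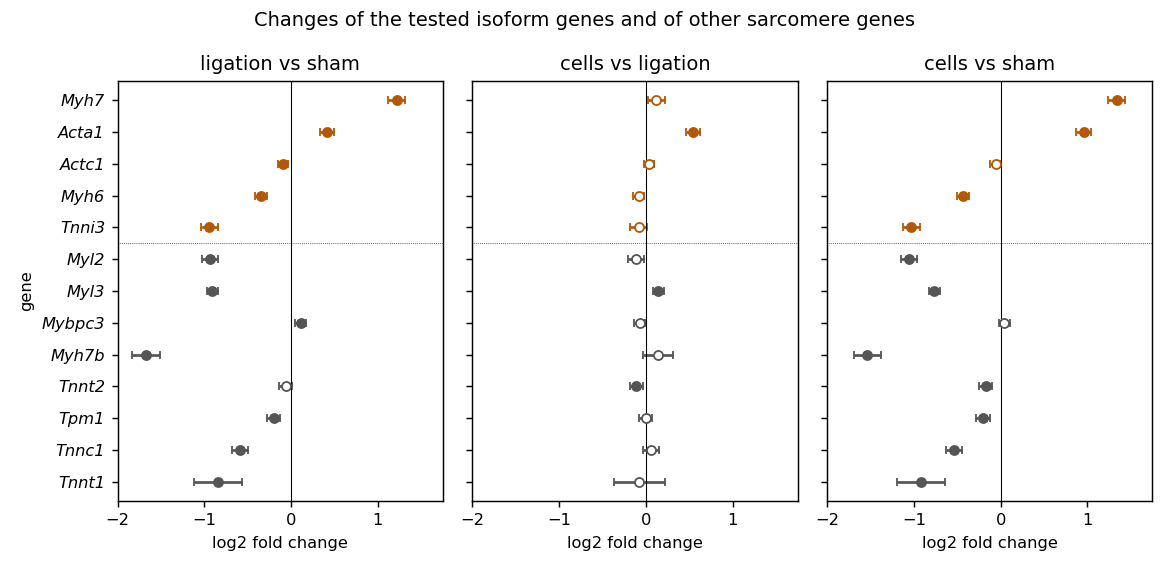
log2 fold change with its 95% interval for the 5 tested isoform genes (orange, above the dotted line) and 8 other sarcomere genes (grey) in the 3 comparisons; filled points passed the test at an adjusted p under 0.05. Between cells and ligation Acta1 stands alone among the orange points at 0.55, while Tnni3 shares its fall of about 1 after ligation with Myl2 and Myl3.

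The ratio of the fetal to the adult isoform was then formed within each library, from counts plus 0.5 per kb of exon. It does not depend on how libraries are scaled. The Myh7 to Myh6 ratio was 0.0345, 0.0325 and 0.0353 in the sham libraries, 0.102, 0.0983 and 0.102 in the ligation libraries, and 0.110, 0.123 and 0.115 in the cell libraries. The 3 groups did not overlap. Over 3 groups an exact permutation test of the log2 ratio gave p = 0.00357, the smallest that 3 groups of 3 allow, and 0.00536 after Benjamini-Hochberg adjustment over 3 pairs. Ligated hearts with and without cells together exceeded sham by 1.67 on the log2 scale (exact two-sided permutation p = 0.0119, adjusted 0.0357). With libraries of the same header stem summed the difference was 1.68, with an exact permutation p = 0.0476, the smallest that 21 regroupings allow (adjusted 0.0714). Between ligation and sham the log2 difference was 1.57 and between cells and ligation 0.20, each with an exact permutation p = 0.1, the smallest that 3 against 3 libraries allow. As a share of the summed counts, Myh7 went from 4.18% ± 0.166 (SD, n = 3) in sham to 11.4% ± 0.226 and 12.9% ± 0.605, so Myh6 remained the main heavy chain in every library.

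The Acta1 to Actc1 ratio was 0.0969, 0.0982 and 0.104 in sham, 0.141, 0.139 and 0.143 after ligation, and 0.200, 0.208 and 0.196 with cells. Each group lay above the one before it with no overlap. The exact permutation test over 3 groups gave p = 0.00357 (adjusted 0.00536), and ligated hearts together exceeded sham by 0.76 on the log2 scale (exact two-sided permutation p = 0.0238, adjusted 0.0357). The step from sham to ligation was 0.50 and that from ligation to cells 0.51, each with an exact permutation p = 0.1, the smallest possible. Whether the second step differed between the actin and the heavy chain pair was not tested. With libraries of the same header stem summed the actin difference was 0.79, also at the smallest p (exact permutation p = 0.0476, adjusted 0.0714). Without any 1 sham library the differences of ligated hearts from sham were 1.63 to 1.69 for the heavy chains and 0.74 to 0.79 for the actins. Both were then at the smallest p that 28 regroupings allow (exact permutation p = 0.0357, adjusted 0.0536). Without ligation library 1 or 3 the heavy chain pair was at the smallest p of 56 regroupings (exact permutation p = 0.0179) and the actin pair was not (p = 0.0357), which gave both an adjusted p of 0.0536 at differences of 1.68 and 0.80 to 0.81. Acta1 counts were 8.64% ± 0.285 of the summed counts in sham, 11.8% ± 0.158 after ligation and 16.0% ± 0.399 with cells. The sum of both actins was 10969 ± 365, 10646 ± 338 and 11473 ± 186 CPM (SD, n = 3), an exact permutation p = 0.0536 over 3 groups.

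The Tnni1 to Tnni3 ratio rests on 0 to 12 Tnni1 counts per library. Tnni1 was 0.0240% ± 0.00766 of the summed counts in sham, 0.0146% ± 0.0151 after ligation and 0.0339% ± 0.0167 with cells, and all 3 groups overlapped. The largest difference between group means of the log2 ratio was 1.53, and the exact permutation test over 3 groups gave p = 0.268. Without ligation library 3 that difference was 2.27 and the test passed (exact permutation, adjusted p = 0.025), and without ligation library 1 it was 0.58 (adjusted p = 0.518). Between ligation and sham the log2 ratio differed by -1.06 (exact two-sided permutation p = 0.5), and between cells and ligation by 1.53 (exact two-sided permutation p = 0.2). With all 9 libraries a shift between troponin I forms was not detectable at this depth, and the values turn on single ligation libraries.

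**Figure D4:**
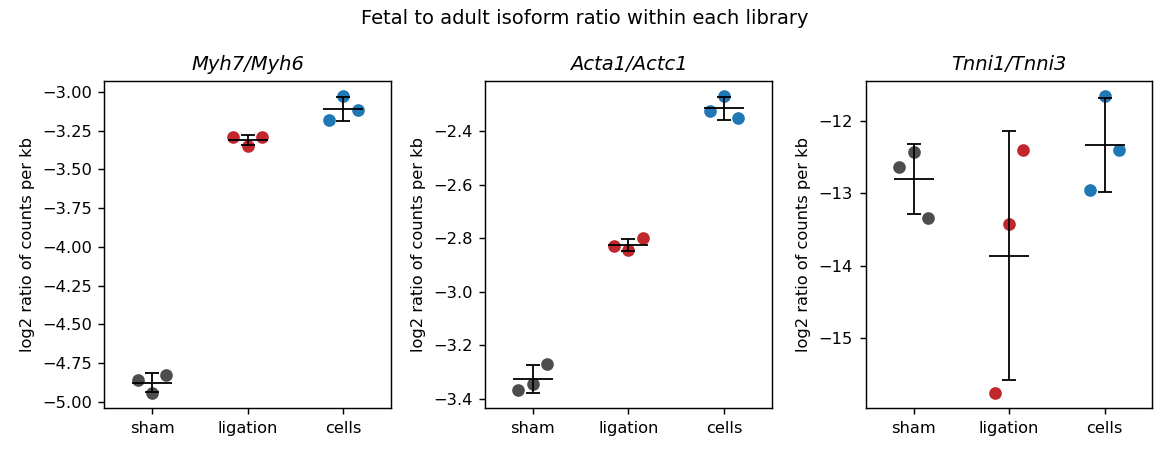
log2 ratio of counts per kb for Myh7 to Myh6, Acta1 to Actc1 and Tnni1 to Tnni3 in each library (points), with group means and SDs (black); the 3 axes have different ranges. The groups separate in the first 2 panels and overlap in the third, where 1 ligation library had 0 Tnni1 counts.

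Other filament pairs showed whether the same order held elsewhere. Myl4 and Myl7, the atrial light chains that the ventricle also expresses before birth, were set against the ventricular Myl3 and Myl2. The Myl4 to Myl3 ratio per kb was 0.0134 ± 0.00142 (SD, n = 3) in sham, 0.0183 ± 0.00156 after ligation and 0.0573 ± 0.000999 with cells. The Myl7 to Myl2 ratio was 0.0598 ± 0.00127, 0.0718 ± 0.00338 and 0.236 ± 0.0156. Both gave p = 0.00357 over 3 groups in the exact permutation test (0.00595 adjusted over 5 pairs), and neither pair's groups overlapped. After ligation Myl4 itself fell (log2 change -0.46, edgeR adjusted p = 9.59e-06) and so did Myl7 (-0.68, adjusted p = 8.3e-08), so those ratios rose through a larger fall of Myl3 and Myl2. With cells Myl4 rose by 1.79 on the log2 scale over ligation (adjusted p = 3.24e-13) and Myl7 by 1.602 (adjusted p = 8.95e-13).

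The Tnnt1 to Tnnt2 ratio, of slow skeletal to cardiac troponin T, went the other way, from 0.00749 ± 0.000508 to 0.00441 ± 0.0000830 and 0.00448 ± 0.000279 (exact permutation p = 0.0321 over 3 groups, adjusted 0.0321). Acta2 to Actc1 was 0.0239 ± 0.00143, 0.0189 ± 0.000560 and 0.0205 ± 0.0000394 (exact permutation p = 0.00357, adjusted 0.00595). Tnni2, the fast skeletal troponin I, had at most 19 counts in a library and Tnnc2, the fast skeletal troponin C, had 0 counts in all 9, so the ratios of these genes are not read.

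Atrial genes were counted in the 3 comparisons, because Acta1 was called higher in each: ligation over sham, cells over ligation and cells over sham. After ligation 4 of 8 rose (Nppa, Dkk3, Tbx5 and Bmp10), 3 fell (Myl4, Myl7 and Sln) and 1 did not pass, with a median log2 change of 0.28. In cells against ligation 4 rose (Myl4, Myl7, Sln and Dkk3), 1 fell (Bmp10) and 3 did not pass, with a median log2 change of 0.45, where 4.19% of all tested genes were higher and 5.69% lower. In cells against sham 7 were higher, 0 lower and 1 did not pass, with a median log2 change of 1.44. Bmp10 averaged 0.108 CPM in sham, 3.96 after ligation and 0.751 with cells. It reached the low-count filter through the ligation group, so its calls are not read. The summed level of the 8 genes was 566 to 663 CPM in sham, 991 to 1764 after ligation and 1779 to 2368 with cells. Sln, the atrial regulator of the calcium pump, was at 66.1 ± 4.72 CPM (SD, n = 3), 55.4 ± 1.16 and 193 ± 20.6. Nppa, which atria and stressed ventricles both express, was at 107 ± 34.4, 895 ± 369 and 792 ± 359 CPM. The rise of the mean summed level after ligation was no larger than that of Nppa alone, so the sum is not read as a rise of the whole list there. The part of atrial tissue in the Acta1 difference was not tested.

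Skeletal muscle markers were counted because skeletal fibres express Acta1 and Tnni1. Of 15 such genes 5 were tested. After ligation 3 rose (Myl1, Tnnt3 and Pvalb), 0 fell and 2 did not pass, with a median log2 change of 1.03. With cells over ligation 1 rose (Myl1), 3 fell (Tnni2, Tnnt3 and Pvalb) and 1 did not pass, with a median of -2.12. Against sham 1 was higher (Myl1), 2 lower (Tnni2 and Pvalb) and 2 did not pass in the cell group. Tnnt3 averaged 0.82 CPM in sham, 3.02 after ligation and 0.67 with cells, and Pvalb 0.60, 3.18 and 0.095. These 2 genes reached the low-count filter through the ligation group, so their calls and the medians of the tested genes are not read. Of the 15 such genes 14, leaving out Myl1, summed to 4.98 to 8.73 CPM in sham, 12.6 to 16.8 after ligation and 3.40 to 4.75 with cells. Tnnc2 and the embryonic heavy chain Myh3 were at 0 in every library. Myl1, which accounts for most of the list's total, had 66.2 CPM in sham, 136 after ligation and 164 with cells, the order of Acta1. With Myl1 the list summed to 69.9 to 75.2, 145 to 162 and 161 to 173 CPM. The part of skeletal muscle in the Acta1 levels was not tested.

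The remaining thick filament and M-band genes changed in both directions after ligation: of 12 tested 5 rose and 7 fell, with a median log2 change of -0.29. Myl2, the ventricular regulatory light chain, went from 8704 to 4547 CPM (log2 change -0.94, SE 0.0445, edgeR adjusted p = 1.01e-12). Myl3, the ventricular essential light chain, went from 6515 to 3468 CPM (-0.91, adjusted p = 4.93e-15). Both fell about as much as Tnni3. Mybpc3, the cardiac myosin-binding protein C that tunes cross-bridge cycling, had a log2 change of 0.11 (adjusted p = 0.00569). Myh7b, a slow heavy chain gene related to Myh7, went from 104 to 32.7 CPM, at -1.67 (adjusted p = 6.12e-13), opposite to Myh7. The other genes that rose were Mybphl, Myom1, Myom2 and Myom3, named after their values were seen.

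Of 12 thin filament genes 5 rose, 5 fell and 2 did not pass after ligation, with a median log2 change of -0.09. With library totals 6 rose, 4 fell and 2 did not pass, and the median was 0.10, so small changes here depend on the scaling. Tnnc1, the calcium-binding troponin C, went from 3075 to 2039.8 CPM (log2 change -0.59, SE 0.0438, edgeR adjusted p = 9.59e-10). Tnnt2, the cardiac troponin T that anchors the complex to tropomyosin, was at -0.06 and did not pass (adjusted p = 0.172), though with library totals it was at 0.12 (adjusted p = 0.00227). The subunits of the troponin complex therefore did not change by equal amounts: Tnni3 at -0.95, Tnnc1 at -0.59 and Tnnt2 at -0.06. Tpm1, the main cardiac tropomyosin, was at -0.20 (adjusted p = 0.000143) and Tnnt1 at -0.84 (adjusted p = 3.35e-05). Other tropomyosin genes also fell (Tpm2 and Tpm3). The 5 genes that rose were Lmod2, Tmod1, Cfl2, Nebl and Nrap, named after their values were seen.

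With cells against ligation, 4 thick filament genes rose (Myl4, Myl7, Myl3 and Mybphl), 1 fell (Ttn) and 7 did not pass. Of the thin filament genes 5 rose (Nrap, Cfl2, Nebl, Tmod1 and Tpm2), 1 fell (Tnnt2) and 6 did not pass, but with library totals 1 rose and 1 fell. Myl3 rose by 0.14 (edgeR adjusted p = 0.00405), while Myl2 was at -0.12 (adjusted p = 0.105). Against sham, 6 thick filament genes were higher and 5 lower, and 5 thin filament genes were higher and 7 lower. With library totals the thin filament counts were 5 higher, 3 lower and 4 not passed, and the median log2 change went from -0.17 to -0.01. The thick filament counts were then 7 higher and 5 lower. In cells against ligation they were 4 higher and 3 lower with library totals.

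Of 20 genes that encode regulators of the isoforms, 19 were tested. After ligation 6 rose, 3 fell (Hdac5, Thra and Mhrt) and 10 did not pass, with a median log2 change of 0.11. With library totals 14 rose and 1 fell. Srf, the factor that binds CArG boxes such as those printed above for Acta1 and Actc1, went from 107 to 134 and 160.1 CPM. Its log2 change was 0.33 after ligation (SE 0.0715, edgeR adjusted p = 0.000969) and 0.26 with cells over ligation (SE 0.0694, adjusted p = 0.0203). Tead1, whose product binds MCAT elements, rose by 0.49 after ligation (adjusted p = 2e-06) and was at 0.08 with cells over ligation (adjusted p = 0.497). Mef2a, a myogenic transcription factor gene and the most abundant of the list, was at -0.02 after ligation (adjusted p = 0.791) and at 0.17 (adjusted p = 0.0238) with library totals. With cells over ligation 2 regulators rose (Srf and Gata4) and 1 fell (Mrtfa). Against sham, 9 were higher and 2 lower (Hdac5 and Mhrt) in the cell group. Messenger RNA of a factor says nothing here of its binding or activity.

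Genes that stressed or fetal hearts express formed a list of 9. After ligation 7 rose and 2 fell (Cacna1h and Hcn4), with a median log2 change of 1.33. Ankrd1, a titin-associated stress-response protein, rose by 1.90 (edgeR adjusted p = 5.01e-19), Nppb, the natriuretic peptide of strained ventricles, by 1.33 (adjusted p = 2.05e-16) and Xirp2, a protein of the intercalated disc, by 1.61 (adjusted p = 7.68e-16). With cells over ligation 3 of 9 rose (Ankrd1, Nppb and Rcan1) and 6 did not pass, with a median of 0.24. Ankrd1 rose by 0.24 (adjusted p = 6.89e-05) and Nppb by 0.28 (adjusted p = 2.52e-05), in the direction of Acta1, while Xirp2 was at 0.15 (adjusted p = 0.0509).

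Several genes overlap the myosin locus on the other strand, and the strand setting of the counts is not given in the sources used here, so reads of the 2 strands may not have been separated. Mhrt, a long non-coding RNA antisense to Myh7, shares 484 exon bases with it, 5.62% of Myh7's exon bases. Mhrt was at 25.9 ± 2.31 CPM (SD, n = 3) in sham, 11.2 ± 2.47 after ligation and 9.90 ± 1.58 with cells. Its log2 change after ligation was -1.24 (SE 0.154, edgeR adjusted p = 1.74e-06), opposite to Myh7. Tnni3 shares 86 exon bases, 4.17% of its own, with Dnaaf3 on the same strand, and Dnaaf3 stood at 4.18 to 8.21 CPM in group means, far below Tnni3.

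The genes whose log2 CPM ran most nearly parallel to each member over the 9 libraries were found among 9413 other genes with a mean of at least 10 CPM, or 9414 for Tnni1. The 9 libraries are 3 groups, so r mostly describes the order of group means. Irf3 was nearest to Myh6 (Pearson r 0.997) and Nupr1 to Myh7 (0.999). Nr4a1 was nearest to Acta1 (0.996), at 12.05 CPM in sham, 26.8 after ligation and 69.0 with cells, followed by Errfi1 (0.993). Map7d1 was nearest to Actc1 (0.968) and Rgs5 to Tnni3 (0.999), followed by Cox4i1 (0.999). For Tnni1 Acsf2 was nearest (0.956), but Tnni1 itself lay near the floor.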

How the data were processed

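Per the labels' protocols, RNA came from TRIzol extraction and libraries from the NEBNext Ultra kit. The authors deposited unnormalized read counts for each gene, 1 table per library, and the build is mm10 per the submitters' processing notes. The aligner, counter, strand setting and annotation release are not given in the sources used here. Each table closes with the lines that htseq-count writes, which were left out of library sizes: reads in no gene were 4.14% to 4.91% of all counts in a table and ambiguous reads 8.09% to 8.72%. Ambiguous reads include those in overlapping genes.

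Symbols (53360 of 53465 IDs), exon lengths and overlaps came from GENCODE for GRCm38, the same assembly as mm10, and promoters from RefSeq (all 6 genes matched). In R 4.3.3 genes were kept with filterByExpr, scaled with TMM and fitted with edgeR 4.0.16 (glmQLFit, glmQLFTest), with 1 mean per group over 9 libraries and 6 residual degrees of freedom. Ratios used counts plus 0.5 and exact two-sided permutation tests. Benjamini-Hochberg adjustment ran over every gene in the fit and, for the ratio tests of 3 groups and of ligated hearts against sham, over the pairs. The exact p-values of 2-group ratio tests and of summed isoforms are unadjusted. The members, the gene lists and the tests were chosen with earlier results of these data known. Named genes are the members, the 3 most abundant of each list and its largest called change after ligation at a mean of at least 1 CPM, and for each member the 2 genes nearest in Pearson r at a mean of at least 10 CPM, with others marked where they appear. Alternatives were DESeq2 1.42.0, limma-voom (limma 3.58.1), other scalings and filters, 2-group fits, removal of mitochondrial genes, a replicate block and leaving out each library. Summing libraries of 1 group whose file headers share a name stem, and offsets for GC content and length, were added after seeing the data. In simulated data of 13661 genes 151 of 200 genes changed by 1 on the log2 scale were called with the right sign. Beside these 151 calls stood 14 false ones. With no gene changed, 3 of 13636 were called. In every pair of replicates the counts differed beyond sampling noise. Poisson intervals and count floors cover counting error only, whereas intervals of log2 changes come from the edgeR standard error and include the spread between libraries. Figures were drawn with matplotlib 3.10.9.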

Additional observations from a re-analysis of the deposited data

Results flagged for a closer look

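Reads that fell in no annotated gene, which enter no comparison, were a larger share in ligation than in sham: 4.75% ± 0.155 (SD, n = 3) of all counts in the table after ligation, with libraries at 4.60% to 4.91%, against 4.21% ± 0.0350 in sham and 4.22% ± 0.113 with cells. The ligation libraries lay above all 6 others.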

How the results depend on the processing

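All 5 tested members kept their direction under every alternative in the 3 comparisons except Actc1. Its log2 change after ligation turned to 0.0934 with library totals, 0.0311 with GC and length offsets and 0.0304 with the replicate block and those offsets, and its change in cells against sham turned to 0.102, 0.0989 and 0.0993. Among the values of single genes 284 kept their side of the threshold, 9 passed it, 1 lost it and 6 turned. The number of members called in cells against ligation was 2 with library totals and with no filter (Acta1 and Myh6), and 2 with GC and length offsets, with or without the replicate block (Acta1 and Myh7), and ranged from 1 to 2 when each library was left out. It was 4 to 6 for ligation against sham and 4 to 5 for cells against sham. Leaving out any library changed the Myh7 to Myh6 difference of ligated hearts from sham to 1.63 to 1.69, the Acta1 to Actc1 difference to 0.70 to 0.81, the Tnni1 to Tnni3 difference to -0.58 to 0.24 (above 0 without ligation library 1) and the Tnni1 to Tnni3 range over 3 groups to 0.58 to 2.27 (exact permutation test, adjusted p = 0.025 without ligation library 3). For both larger ratios the adjusted p of the exact permutation test was 0.0536 without sham library 1, 2 or 3, where both raw p-values were the smallest possible with 2 sham libraries (0.0357), and 0.0268 without ligation library 2 or any cell library. It was 0.0536 without ligation library 1 or 3, where the actin pair (0.0357) was above the smallest possible p (0.0179).

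Replicate numbers did not pair the libraries: same-numbered libraries correlated at -0.121 to 0.133, and 4 of 9 correlated best with their own number. With the replicate block the members called were 5, 1 and 4, as without it, and the ratio differences were 1.67 for Myh7 to Myh6 and 0.76 for Acta1 to Actc1, with exact permutation p = 0.111 after adjustment; the raw p was 0.0370, the smallest possible, for the first and 0.0741 for the second. With libraries of the same header stem summed they were 1.68 and 0.79 (exact permutation, adjusted p = 0.0714, raw p at its smallest of 0.0476); sham libraries 1 and 2, and ligation libraries 2 and 3, share a stem. Library totals moved the share of called genes that were higher from 52.7% to 78.7% after ligation, from 42.4% to 32.0% for cells against ligation and from 51.2% to 73.1% for cells against sham. The ratio without a pseudocount could not be fitted for Tnni1 to Tnni3, as 1 library had 0 counts. Depth limits Tnni1 alone among the members.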

Other observations

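The microRNA hairpin gene Mir208b lies inside an intron of Myh7 on the same strand, and its row moved against its host. It had 52 to 74 counts in the sham libraries, 19 to 45 after ligation and 12 to 24 with cells, or 10.7 ± 1.47, 4.82 ± 0.789 and 2.54 ± 0.839 CPM (SD, n = 3). The log2 change was -1.13 after ligation (SE 0.229, edgeR adjusted p = 0.000499) and -0.94 for cells against ligation (SE 0.277, adjusted p = 0.0346). Gm17428, on the other strand within the Myh7 locus, had 14 to 28, 6 to 11 and 0 to 1 counts, or 3.59 ± 1.06, 1.22 ± 0.188 and 0.0935 ± 0.0810 CPM. It reached the low-count filter through the sham group, where it was highest, so its tests are not read. Gm49130, antisense to Myh6, went from 6.17 ± 0.961 to 1.80 ± 0.385 and 1.22 ± 0.751 CPM, with a log2 change of -1.81 after ligation (adjusted p = 0.000259). Reads in these rows can come from either strand or from unspliced RNA of the host genes, and a hairpin row in such a library is no measure of the mature microRNA. The other rows inside or overlapping the myosin genes, apart from Mhrt, had at most 16 counts in a library. These genes were listed for their place in the loci, and the 3 described were named after their values were seen.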
